A study of Mus musculus with 18 samples.

Results

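Disease-associated microglia genes were followed across 5 groups of sorted mouse brain macrophages. The genes were taken by symbol, as a list of 10: Trem2, Tyrobp, Lgals3, Cd52, Spp1, Gpnmb, Itgax, Cst7, Cd9 and Cd63. Of these, 9 were present among the 13043 genes of the count table and all 9 passed the filter on low counts, which kept 10597 genes; Gpnmb was not analysed here. Wild type C57BL6/C recipients were lethally irradiated and received marrow from donors that carried Ms4a3-Cre, the R26-TdTomato reporter and a Cx3cr1-gfp allele, and every group was sorted 32 weeks later. Leptomeningeal macrophages, which the labels abbreviate as BAM (border-associated macrophages), were sorted as monocyte-derived cells (GFP and TdTomato, 4 libraries) and as HSC-derived cells (GFP without TdTomato, 2 libraries). Microglia from the underlying brain tissue were sorted as monocyte-derived (4 libraries), HSC-derived (4 libraries) and host cells without either colour (4 libraries). HSC stands for haematopoietic stem cell. The Cre is driven by Ms4a3, a gene of granulocyte-monocyte progenitors, and leaves its mark on their descendants, so that "monocyte-derived" and "HSC-derived" stand here for the presence and absence of that mark in donor cells. All donor-derived groups carried the Cx3cr1-gfp allele and all groups came from irradiated mice, so that an unirradiated brain was not part of the comparison. The labels do not say that replicates came from separate mice, and p-values therefore measure the spread between these libraries only.

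Disease-associated microglia are a state first described around amyloid plaques in mouse models, in which microglia raise genes of phagocytosis, lysosomes and lipid handling and lower their homeostatic genes. The lipid-binding receptor TREM2 signals through the adaptor TYROBP (also called DAP12) and is needed for the full state. The other genes of the list serve as its secreted or surface products: galectin-3 (Lgals3), osteopontin (Spp1), the integrin CD11c (Itgax), the small surface glycoprotein CD52, the tetraspanins CD9 and CD63 and the protease inhibitor cystatin F (Cst7).

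RefSeq promoter sequences on GRCm38.p6 matched 7 of the 9 measured genes, with 2 starts for Spp1; Tyrobp and Cd52 were not among them. The 250 bases before the start are printed for Lgals3 and Cd63, which were higher in donor-derived than in host microglia, for Cst7 and Cd9, which were lower there, and for Trem2, which was lower in the leptomeninges. Each reads 5′ to 3′ on the strand of the gene, and capitals mark a match to one of the motifs searched.
Lgals3, chr14:47373610-47373859, plus strand: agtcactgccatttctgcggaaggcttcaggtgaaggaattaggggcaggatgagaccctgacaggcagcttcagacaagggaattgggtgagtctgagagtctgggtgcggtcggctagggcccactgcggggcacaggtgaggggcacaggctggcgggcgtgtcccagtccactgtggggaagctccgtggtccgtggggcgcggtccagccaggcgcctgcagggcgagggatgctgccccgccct
Cd63, chr10:128909095-128909344, plus strand: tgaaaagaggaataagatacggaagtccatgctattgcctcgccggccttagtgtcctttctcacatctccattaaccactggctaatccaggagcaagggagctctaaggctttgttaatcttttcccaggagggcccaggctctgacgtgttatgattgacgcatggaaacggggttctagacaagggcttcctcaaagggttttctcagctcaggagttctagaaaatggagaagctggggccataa
Cst7, chr2:150570165-150570414, plus strand: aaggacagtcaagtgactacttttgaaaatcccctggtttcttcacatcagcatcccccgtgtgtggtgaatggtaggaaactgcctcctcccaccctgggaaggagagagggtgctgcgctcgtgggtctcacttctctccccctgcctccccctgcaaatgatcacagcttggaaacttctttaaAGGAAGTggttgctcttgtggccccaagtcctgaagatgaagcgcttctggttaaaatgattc
Cd9, chr6:125494761-125495010, minus strand: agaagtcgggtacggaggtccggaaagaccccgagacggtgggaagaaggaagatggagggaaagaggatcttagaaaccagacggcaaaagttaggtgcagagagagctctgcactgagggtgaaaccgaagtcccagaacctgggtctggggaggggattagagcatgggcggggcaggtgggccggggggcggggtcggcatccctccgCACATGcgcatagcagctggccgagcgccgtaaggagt
Trem2, chr17:48346151-48346400, plus strand: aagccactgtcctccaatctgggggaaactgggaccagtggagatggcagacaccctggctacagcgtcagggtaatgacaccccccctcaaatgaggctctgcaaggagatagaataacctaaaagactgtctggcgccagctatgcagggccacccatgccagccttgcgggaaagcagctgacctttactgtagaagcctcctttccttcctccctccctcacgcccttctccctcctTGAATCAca
Motifs were searched on both strands: AGGAAGT, a core bound by the myeloid factor PU.1; TGANTCA, bound by AP-1; CACGTG, the palindromic E-box; and CATGTG, an E-box variant known as the M-box. AGGAAGT was found in the windows of Cst7, 57 bases before the start, and of the upstream start of Spp1, 106 bases before it; it occurs in 7.69% of all 32851 promoter windows of this length. TGANTCA was found in the windows of Trem2 (3 bases before the start) and Itgax (50 bases before it), against 6.75% of all windows. CATGTG was found in the window of Cd9, against 12.3% of all windows, and CACGTG in none of the 8, against 6.02%. No matches overlapped. These are letter matches and say nothing of binding in these cells.

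RNA was counted as unique molecular identifiers, which count captured molecules, by MARS-seq, a 3' end method. Levels are CPM (counts scaled to a common library size) after scaling of the libraries by TMM, and fold changes are log2 values with their standard error (SE). Total counts ran from 154727 to 2440234 per library, and 3 counts corresponded to between 1.05 and 23.0 CPM. The shallowest libraries, HSC-derived microglia replicates 3 and 4 and HSC-derived leptomeningeal replicate 2, had 264795, 317872 and 154727 counts. A fit without these 3 leaves 1 HSC-derived leptomeningeal library, and its tests then assume that this library varies like the other groups. Apoe took 18.5% and 16.5% of counts in that pair of microglia libraries, against 11.4% and 9.17% in replicates 1 and 2. The sort was checked on 8 microglia and 9 border macrophage markers. Summed microglia markers were highest in host microglia, at 19900 to 22700 CPM, against 8380 to 9030 CPM in monocyte-derived and 6760 to 8400 CPM in HSC-derived microglia, and they were lowest in the leptomeninges, at 1720 to 3110 CPM in monocyte-derived and 1460 to 1530 CPM in HSC-derived cells. Summed border macrophage markers were highest in the leptomeninges, at 6010 to 7440 CPM in monocyte-derived and 9050 to 11900 CPM in HSC-derived cells. They also reached 2170 to 2250 CPM in monocyte-derived and 2350 to 3210 CPM in HSC-derived microglia, against 41.3 to 50.7 CPM in host microglia, where Lyve1 had no count. Single markers differed. Ms4a7 averaged 776 and 880 CPM in monocyte-derived and HSC-derived microglia, against 477 and 588 CPM in their leptomeningeal counterparts. In the same order Clec12a averaged 343 and 456 against 368 and 378 CPM, and Lyve1 5.04 and 6.39 against 252 and 356 CPM. The remaining markers were also lower in donor-derived microglia than in the leptomeninges.

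**Figure D1:**
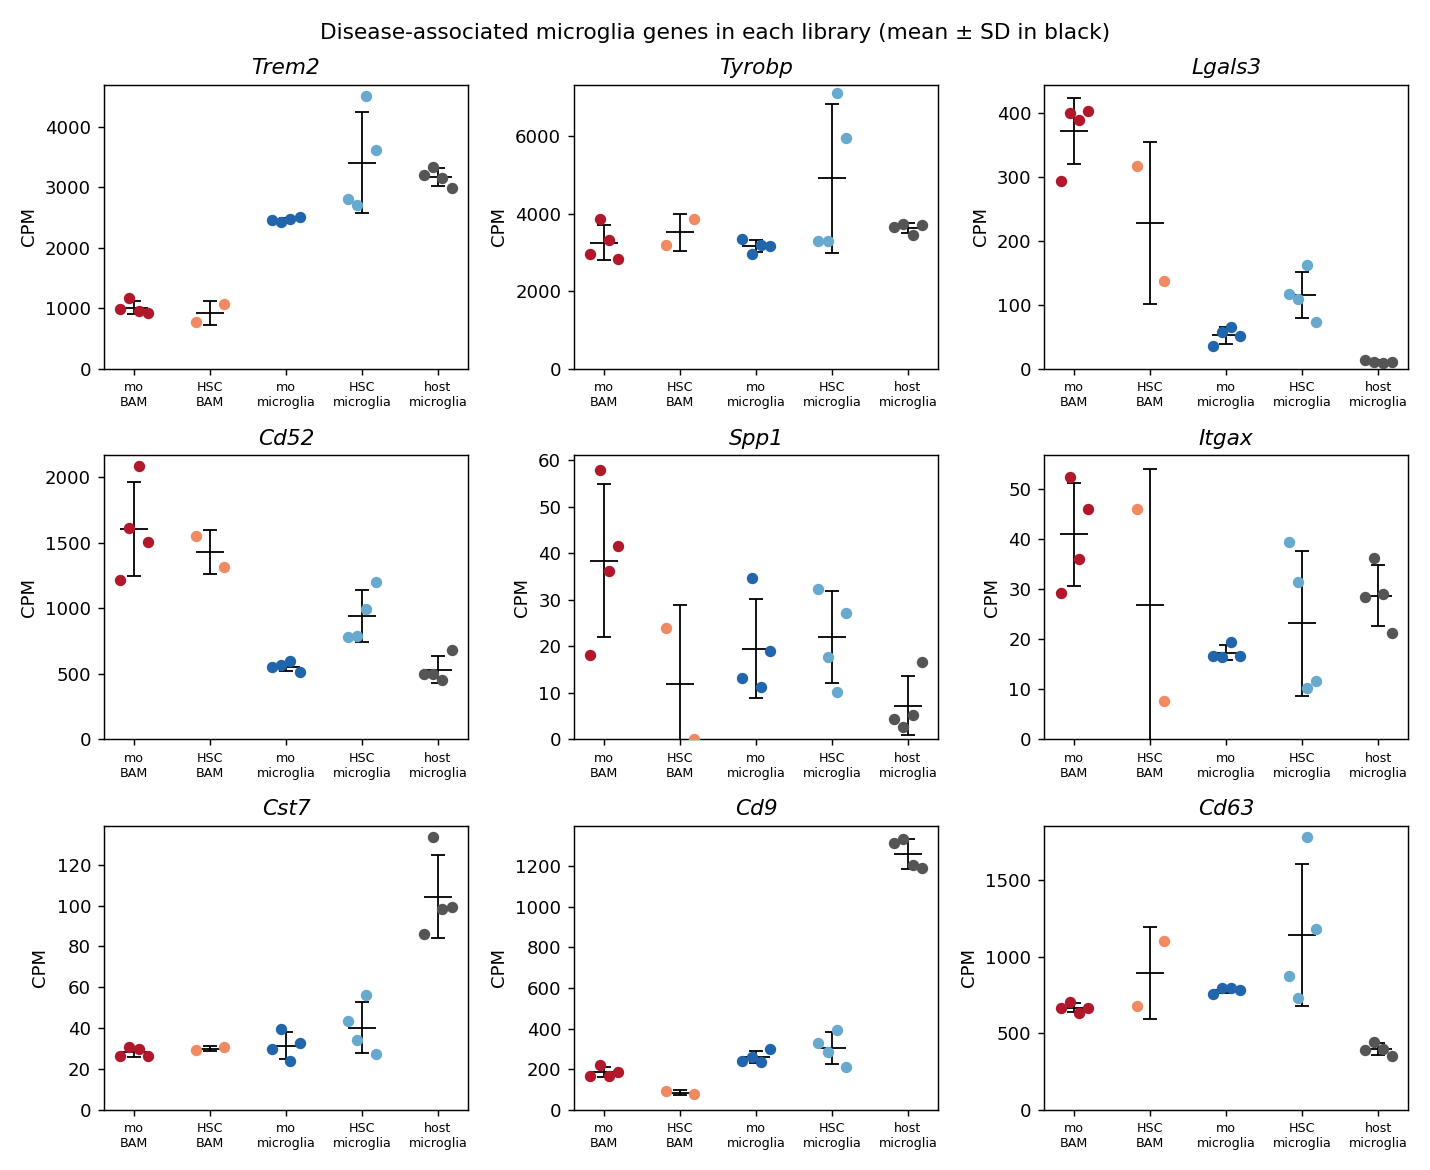
CPM (y axis, from 0) of each measured disease-associated microglia gene in every library (points) of monocyte-derived (mo) and HSC-derived leptomeningeal macrophages (BAM) and of monocyte-derived, HSC-derived and host microglia, with group mean and SD in black (n = 4, and n = 2 for HSC BAM). By group mean, Lgals3 and Cd52 are highest in the leptomeningeal groups, Trem2 in the microglia groups, and Cst7 and Cd9 in host microglia.

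The comparison of donor-derived with host microglia asked which genes distinguish marrow-derived cells that had settled in the brain tissue from the resident cells there. The disease-associated genes did not move together. Lgals3 and Cd63 were higher and Cst7 and Cd9 lower in both donor-derived groups, while Trem2 and Tyrobp were not called in either. In monocyte-derived microglia 2 of the 9 genes were called higher (edgeR quasi-likelihood test, adjusted p below 0.05), where 15.1% of all tested genes were, and 3 were called lower, where 15.1% of all tested genes were. In HSC-derived microglia 3 were called higher, against 16.2% of all tested genes, and 2 lower, against 13.1%. The median log2 fold change of the 9 genes was -0.20 in monocyte-derived microglia, against 0.01 over all tested genes, and 0.43 in HSC-derived microglia, against 0.00 over all tested genes. Both comparisons use the same host libraries. In sorted bulk samples, fewer cells of a kind and less RNA per cell cannot be told apart.

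The receptor and its adaptor come first. Trem2 (chromosome 17, 48346401 to 48354147, plus strand; all gene positions are those of GENCODE vM21 on GRCm38, the assembly that mm10 denotes) had 2460, 2417, 2466 and 2500 CPM in monocyte-derived microglia, 2800, 2703, 4499 and 3615 CPM in HSC-derived microglia, and 3200, 3335, 3149 and 2987 CPM in host microglia. All monocyte-derived libraries lay below all host libraries. HSC-derived replicates 1 and 2 also lay below all host libraries, and the shallow replicates 3 and 4 lay above them. The log2 fold change was -0.36 (SE 0.170, adjusted p = 0.106) in monocyte-derived and 0.10 (SE 0.171, adjusted p = 0.718) in HSC-derived microglia, and neither was called. The HSC-derived value was -0.20 without the shallow libraries. Trem2 was called lower in monocyte-derived microglia in 4 of 19 alternative analyses, among them the fit of these 8 libraries alone (log2 -0.33, adjusted p = 0.000164) and the fit without the shallow libraries (log2 -0.35, adjusted p = 0.0056).

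Tyrobp (chromosome 7, 30413760 to 30417585, plus strand) had 3343, 2968, 3200 and 3181 CPM in monocyte-derived microglia, 3310, 3307, 7113 and 5958 CPM in HSC-derived microglia, and 3662, 3738, 3442 and 3707 CPM in host microglia. The monocyte-derived libraries lay below the host libraries, and the shallow HSC-derived replicates 3 and 4 lay above all of them. The log2 fold changes of -0.20 (SE 0.198, adjusted p = 0.495) in monocyte-derived and 0.43 (SE 0.199, adjusted p = 0.1) in HSC-derived microglia were not called. The HSC-derived value was called without replicate 1 or without replicate 2 of that group (log2 0.58, adjusted p = 0.0224 and 0.0228) and was -0.14 without the shallow libraries.

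Of the secreted products, Lgals3, which encodes the galactose-binding lectin galectin-3 of phagocytic macrophages, had the largest upward difference from host cells among the 9 genes. Lgals3 (chromosome 14, 47367751 to 47386160, plus strand) had 34.96, 57.6, 66.2 and 50.8 CPM in monocyte-derived microglia, 116.9, 109.3, 163 and 73.9 CPM in HSC-derived microglia, and 14.2, 11.3, 9.43 and 10.7 CPM in host microglia. Every donor-derived library lay above every host library. Lgals3 was 4.63-fold higher in monocyte-derived (log2 2.21, SE 0.247, adjusted p = 1.81e-08) and 10.1-fold higher in HSC-derived microglia (log2 3.34, SE 0.258, adjusted p = 1e-11), and it was called in all 19 alternatives of either comparison. With all libraries thinned to the shallowest total the HSC-derived value was 2.65 on the log2 scale.

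Spp1, which encodes the secreted phosphoprotein osteopontin (chromosome 5, 104435118 to 104441050, plus strand), was sparsely counted. It had 13.2, 34.6, 11.2 and 19.1 CPM in monocyte-derived microglia, 32.4, 17.8, 10.2 and 27.2 CPM in HSC-derived microglia, and 4.27, 2.72, 5.24 and 16.7 CPM in host microglia. Host replicate 4 lay among the donor-derived libraries, and the other host libraries lay below all of them. By edgeR, Spp1 was not called in monocyte-derived (log2 1.49, SE 0.554, adjusted p = 0.0548) or HSC-derived microglia (log2 1.80, SE 0.672, adjusted p = 0.0559). Without host replicate 4 it was called higher in both, with log2 values of 2.18 (adjusted p = 0.00296) in monocyte-derived and 2.48 (adjusted p = 0.00382) in HSC-derived microglia. It was also called higher in monocyte-derived microglia without replicate 3 of that group (log2 1.68, adjusted p = 0.0421) and with library totals in place of TMM (adjusted p = 0.0497). DESeq2 called it higher in monocyte-derived (adjusted p = 0.0281) and HSC-derived microglia (adjusted p = 0.0135), as did limma voom (adjusted p = 0.00115 and 0.00162), and edgeR called it in HSC-derived microglia when only these groups were fitted (adjusted p = 0.011). Spp1 shares its locus with the transcript Gm42793 on the same strand, and the strand rule of the counting is not given in the sources used here.

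Cst7, which encodes cystatin F, an inhibitor of lysosomal cysteine proteases (chromosome 2, 150570415 to 150578944, plus strand), fell in both donor-derived groups. It had 29.8, 39.5, 23.7 and 32.5 CPM in monocyte-derived microglia, 43.7, 34.2, 56.1 and 27.2 CPM in HSC-derived microglia, and 86.1, 133.5, 98.5 and 99.2 CPM in host microglia. The host libraries lay above all donor-derived libraries. The log2 fold change was -1.75 (SE 0.168, adjusted p = 2.11e-10) in monocyte-derived and -1.42 (SE 0.204, adjusted p = 1.27e-06) in HSC-derived microglia.

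The tetraspanins CD9 and CD63 organise membrane domains, CD9 at the cell surface and CD63 mainly in late endosomes and lysosomes, and their genes moved in opposite directions. Cd9 (chromosome 6, 125460266 to 125494791, minus strand) had 241.3, 260.1, 235.5 and 300.8 CPM in monocyte-derived microglia, 328.3, 285.6, 392.3 and 210.2 CPM in HSC-derived microglia, and 1314, 1334, 1207 and 1189 CPM in host microglia. It fell in both groups without overlap, by 2.28 on the log2 scale in monocyte-derived microglia (SE 0.16, adjusted p = 8.02e-14) and by 2.06 in HSC-derived microglia (SE 0.165, adjusted p = 3.71e-12). Cd9 overlaps Gm28809 and Gm26728, transcripts on the plus strand.

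Cd63 (chromosome 10, 128900989 to 128912822, plus strand) had 755.9, 793.4, 797 and 784.1 CPM in monocyte-derived microglia, 873.6, 732.4, 1783 and 1179 CPM in HSC-derived microglia, and 390, 443.4, 397.6 and 350.3 CPM in host microglia. All donor-derived libraries lay above the host libraries, and the shallow HSC-derived replicates 3 and 4 were the highest. Cd63 rose by a log2 fold change of 0.98 (SE 0.191, adjusted p = 0.000116) in monocyte-derived and of 1.51 (SE 0.196, adjusted p = 1.94e-07) in HSC-derived microglia, or 1.02 in HSC-derived microglia without the shallow libraries. The count table also holds the pseudogene Cd63-ps, and how reads common to both were assigned is not given in the sources used here.

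Of the other surface proteins, Itgax, the alpha chain of a beta2 integrin that binds complement fragments and fibrinogen (chromosome 7, 128129547 to 128150657, plus strand), had 16.6, 16.5, 19.5 and 16.7 CPM in monocyte-derived microglia, 39.5, 31.4, 10.2 and 11.7 CPM in HSC-derived microglia, and 28.5, 36.2, 29.0 and 21.3 CPM in host microglia. The monocyte-derived libraries lay below all host libraries, while the HSC-derived libraries lay above and below them, the shallow pair below. The values of that pair, 10.2 and 11.7 CPM, rest on only 2 and 3 counts. Itgax fell by 0.74 on the log2 scale in monocyte-derived microglia (SE 0.247, adjusted p = 0.0203). That call was lost without host replicate 2 (log2 -0.60, adjusted p = 0.105), without monocyte-derived replicate 1, 2 or 4 (adjusted p = 0.0583, 0.0538 and 0.0509) and in DESeq2 (adjusted p = 0.0525). In HSC-derived microglia the log2 fold change was -0.03 (SE 0.292, adjusted p = 0.966).

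Cd52, a small glycosylphosphatidylinositol-anchored protein of leukocytes (chromosome 4, 134082448 to 134095082, minus strand), had 549, 563, 595 and 510.3 CPM in monocyte-derived microglia, 783.4, 785.7, 993.5 and 1203 CPM in HSC-derived microglia, and 498.9, 495.9, 452.5 and 679.3 CPM in host microglia. The HSC-derived libraries lay above all host libraries and the monocyte-derived libraries lay among them. Cd52 rose in HSC-derived microglia (log2 0.82, SE 0.180, adjusted p = 0.000639), and by 0.56 without the shallow libraries (adjusted p = 0.00915). In monocyte-derived microglia it was not called (log2 0.06, SE 0.176, adjusted p = 0.838), with a 95% interval of the log2 difference from -0.28 to 0.41. Its locus overlaps Crybg2 on the plus strand.

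Other cell types' markers also differed between donor-derived and host microglia. The 5 choroid plexus epithelium markers summed to 6.27 to 160 CPM in monocyte-derived and 13.7 to 479 CPM in HSC-derived microglia, against 2060 to 3500 CPM in host microglia; Folr1 and Kl were at 0 in monocyte-derived microglia. The 6 measured monocyte markers of 7 summed to 55.0 to 90.5 CPM in monocyte-derived and 97.3 to 133 CPM in HSC-derived microglia, against 9.32 to 14.9 CPM in host microglia, and Chil3 and Hp were at 0 in HSC-derived and host microglia. The part of either in the values above was not tested.

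**Figure D2:**
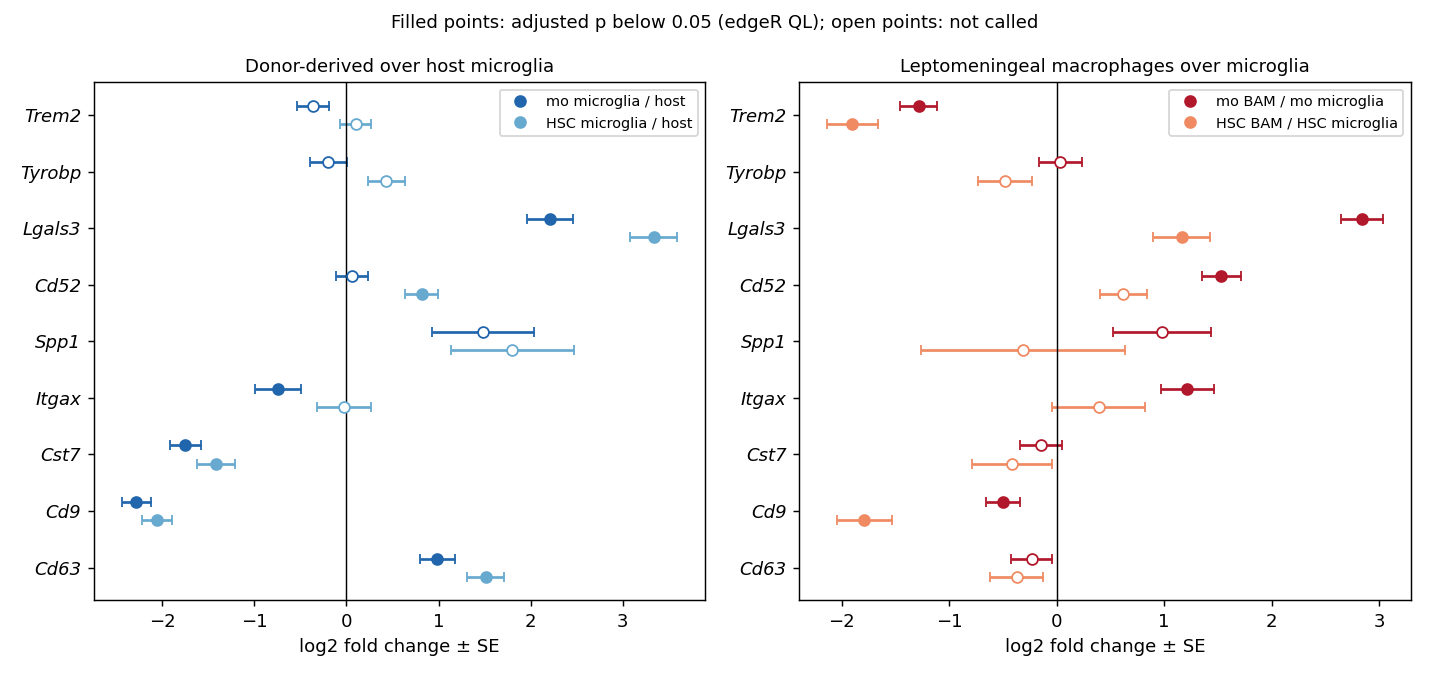
Log2 fold changes with SE (x axis) of the 9 genes, in monocyte-derived and HSC-derived over host microglia (left) and in leptomeningeal macrophages over microglia of the same origin (right); filled points have an edgeR adjusted p below 0.05. Cst7 and Cd9 lie left of 0 and Lgals3 and Cd63 right of 0 in both comparisons with host cells, and Trem2 lies left of 0 in both leptomeningeal comparisons.

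Further genes of the same state were also called in both directions. Of 33 other disease-associated microglia genes tested, of 36 listed, 11 were higher and 7 lower in monocyte-derived microglia, with a median log2 fold change of 0.07 against 0.01 over all tested genes. In HSC-derived microglia 13 were higher and 5 lower, with a median of 0.28 against 0.00. The shares over all tested genes were 15.1% higher and 15.1% lower in monocyte-derived microglia. They were 16.2% higher and 13.1% lower in HSC-derived microglia. Cybb, the catalytic subunit of the phagocyte NADPH oxidase, had 648 ± 48.1 CPM in monocyte-derived microglia (SD, n = 4, as for every mean in this paragraph) and 613 ± 57.7 CPM in HSC-derived microglia, against 17.4 ± 3.02 CPM in host microglia. Axl, a receptor tyrosine kinase for apoptotic cells, had 537 ± 34.1 and 591 ± 85.8 CPM in these donor-derived groups, against 73.0 ± 15.3 CPM in host microglia. Apoe, the lipid carrier apolipoprotein E, rose by log2 fold changes of 4.66 in monocyte-derived and 5.60 in HSC-derived microglia. Genes of the list that fell in both were Csf1, Ctsl, Syngr1, Serpine2 and Ccl6, and those that were not called in either included the lysosomal proteases Ctsa, Ctsb, Ctsd, Ctss and Ctsz and the macrophage sialomucin Cd68; these were named after their values were seen, to show the full split. Homeostatic microglia genes, which disease-associated microglia lower, were lower for 15 and higher for 2 of 20 in monocyte-derived microglia (median log2 -0.84), and lower for 15 and higher for 1 in HSC-derived microglia (median log2 -0.73). Cx3cr1 stands on this list, and only donor-derived cells carried its gfp allele. It had 1720 ± 108 CPM in monocyte-derived and 1400 ± 292 CPM in HSC-derived microglia, against 3880 ± 503 CPM in host microglia. The part of the allele was not tested. Sall1, which encodes a zinc finger factor that maintains microglia, had log2 fold changes of -3.38 in monocyte-derived and -3.75 in HSC-derived microglia, and the surface marker gene Tmem119 had -1.30 and -1.53.

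**Figure D3:**
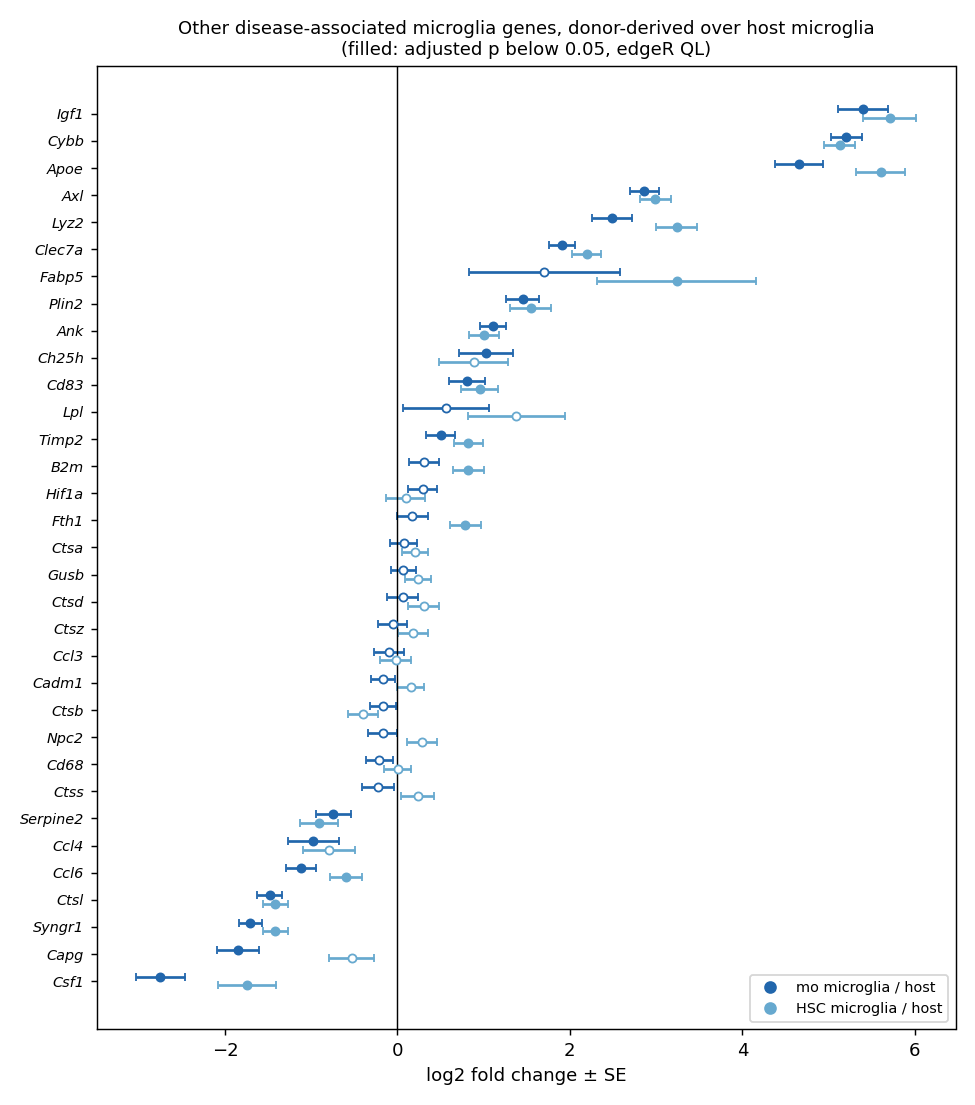
Log2 fold changes with SE (x axis) of the 33 other disease-associated microglia genes tested, in monocyte-derived and in HSC-derived over host microglia, sorted by the monocyte-derived value; filled points have an edgeR adjusted p below 0.05. Values spread to both sides of 0, with 11 called higher and 7 lower in monocyte-derived microglia and 13 and 5 in HSC-derived microglia.

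The genes that act beside each member were counted by list, and some stand on more than one list. Over all tested genes, 15.1% were higher and 15.1% lower in monocyte-derived microglia, and 16.2% higher and 13.1% lower in HSC-derived microglia, which is the background for these counts. Of 18 genes of TREM2-TYROBP signalling and shedding, 1 was higher and 4 lower in monocyte-derived microglia, and 2 were higher and 6 lower in HSC-derived microglia. Adam17, a protease that sheds TREM2 from the surface, had 131 ± 9.67 CPM in monocyte-derived and 108 ± 4.77 CPM in HSC-derived microglia, against 181 ± 8.34 CPM in host microglia (SD, n = 4), and Lat2, an adaptor protein of immune receptors, fell by 1.05 on the log2 scale in monocyte-derived microglia. Vav3, a guanine nucleotide exchange factor, had 18 counts in all in monocyte-derived and 8 in HSC-derived microglia and none in host microglia. With host microglia set at 3 counts over the group, the ratios would be 8.47 and 11.2. At the counts found, the exact 95% lower limits of the ratios, for counting error, are 6.2 and 7.19. Of 12 receptors other than Trem2 listed as TYROBP-associated, 9 were tested, and the pairing of each with TYROBP was not checked here. Of these 9, 5 were higher and 1 lower in monocyte-derived microglia and 3 were higher and 1 lower in HSC-derived microglia. Klrk1, the receptor NKG2D, which T and NK cells also express, had 54 counts in monocyte-derived and 34 in HSC-derived microglia against 3 in host microglia, a ratio of 25.4 (95% exact interval 8.24 to 127) and of 47.7 (15 to 243) after scaling. T and NK cell markers, 11 measured of 12, summed to 112 to 143 CPM in monocyte-derived and 5.1 to 145 CPM in HSC-derived microglia, against 22.1 to 43.3 CPM in host microglia, and their part in the Klrk1 counts was not tested. Counting intervals cover counting error only.

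Osteopontin receptors, integrin partners and galectin-3 and GPNMB partners had 4 members higher and 6 lower of 15 in monocyte-derived microglia, and 4 higher and 7 lower in HSC-derived microglia. Itga4, the alpha4 integrin chain, had 93.1 ± 7.25 CPM in monocyte-derived and 71.7 ± 18.7 CPM in HSC-derived microglia, against 1.62 ± 0.816 CPM in host microglia (SD, n = 4). Itgb3, the beta3 chain, went the other way, with 6.77 ± 2.70 and 2.08 ± 2.40 CPM in the same donor-derived groups, against 35.7 ± 3.04 CPM in host microglia. Of 15 further tetraspanins 8 were lower and 1 higher in either donor-derived group; Cd81, a close relative of CD9, had 798 ± 56.1 and 812 ± 71.2 CPM in monocyte-derived and HSC-derived microglia, against 1820 ± 154 CPM in host microglia. Among 7 cystatins and cystatin F target proteases, 2 were higher and 4 lower in monocyte-derived microglia and 2 higher and 3 lower in HSC-derived microglia. Ctsc, cathepsin C, rose by log2 fold changes of 1.85 in monocyte-derived and 1.67 in HSC-derived microglia, while Ctsl, cathepsin L, fell by 1.48 and 1.42. Of 4 tested galectins other than Lgals3, Lgals1 was called: it had 97.8 ± 10.8 CPM in monocyte-derived and 201 ± 53.8 CPM in HSC-derived microglia, against 13.3 ± 6.55 CPM in host microglia. Of 18 transcription factors tied to the programme, 5 were higher and 2 lower in monocyte-derived microglia and 2 higher and 4 lower in HSC-derived microglia; the leucine zipper factor gene Maf rose by 0.81 on the log2 scale in monocyte-derived microglia.

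**Figure D4:**
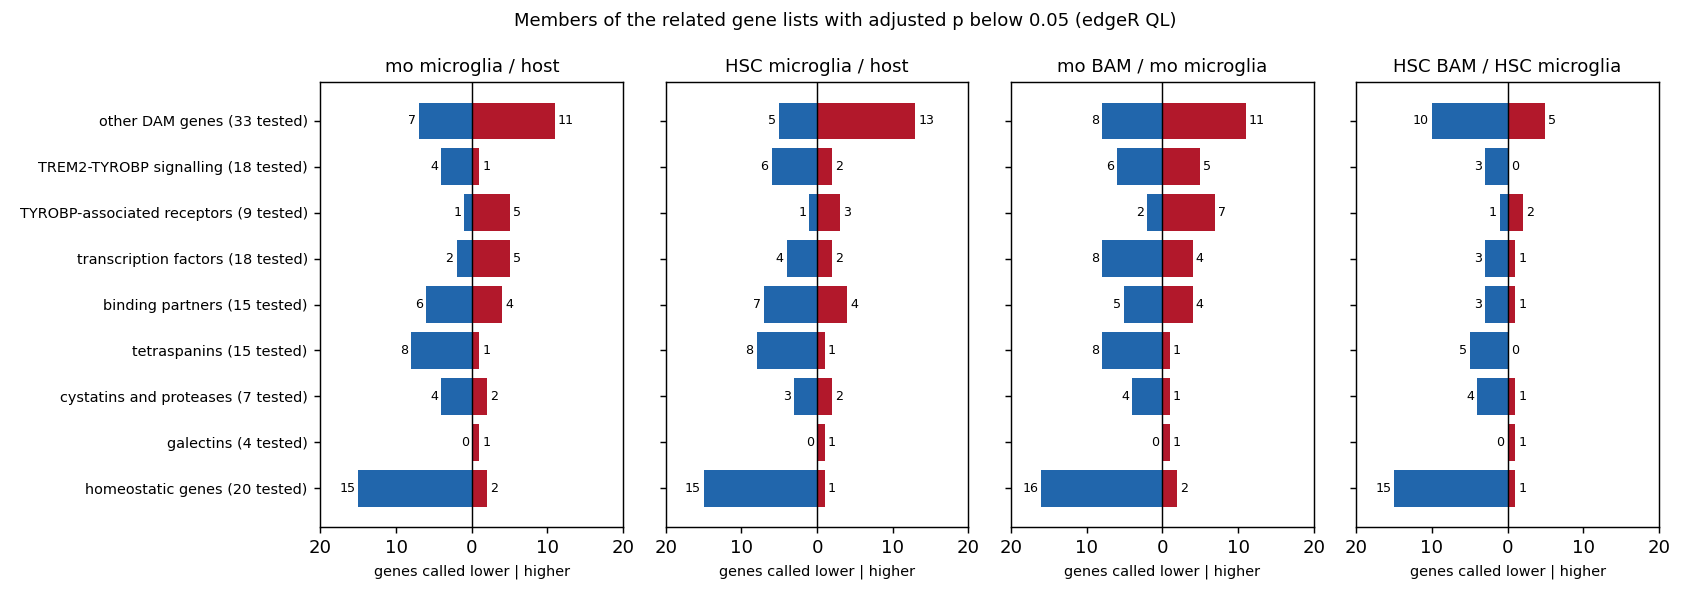
Numbers of genes (x axis) called lower (left of 0) and higher (right of 0) by edgeR in each related gene list, for the comparisons of donor-derived with host microglia and of leptomeningeal macrophages (BAM) with microglia; DAM stands for disease-associated microglia. Homeostatic genes are called lower far more often than higher in each panel, at 15, 15, 16 and 15 of 20, while other DAM genes are called in both directions.

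Monocyte-derived and HSC-derived microglia were then compared directly, to ask whether the Ms4a3 mark went with different levels of these genes within the brain tissue. Lgals3 and Cd52 were lower in monocyte-derived microglia, without overlap between the libraries printed above. None of the 9 genes was called higher, where 0.123% of all tested genes were, and 2 were called lower, where 1.76% were. Lgals3 averaged 52.4 ± 13.2 CPM in monocyte-derived and 115.8 ± 36.6 CPM in HSC-derived microglia (SD, n = 4 each; log2 -1.13, SE 0.224, adjusted p = 0.00705), and Cd52 averaged 554.3 ± 35.1 and 941.3 ± 200 CPM (log2 -0.75, SE 0.180, adjusted p = 0.0212). Without the shallow libraries Lgals3 remained called (log2 -1.11, adjusted p = 0.00284) and Cd52 did not (log2 -0.49, adjusted p = 0.279). Lgals3 was not called without HSC-derived replicate 3 (log2 -0.997, adjusted p = 0.0519), with counts thinned to the shallowest library (log2 -0.94, adjusted p = 0.133) or with library totals (log2 -0.85, adjusted p = 0.0528), and Cd52 was not called without monocyte-derived replicate 1, 2 or 4 or HSC-derived replicate 3 or 4 (adjusted p between 0.0625 and 0.172). The edgeR call of Cd52 was also lost with library totals (log2 -0.42, adjusted p = 0.116) and with only these groups fitted (adjusted p = 0.0822). It was held in 11 of 19 alternatives.

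The other 7 genes were not called by edgeR between the microglia of both origins. DESeq2 called Trem2 (log2 -0.50, adjusted p = 0.0283) and Tyrobp (log2 -0.67, adjusted p = 0.0332) lower in monocyte-derived microglia. Their log2 fold changes lay between -0.72 for Itgax and -0.22 for Cd9. The 95% interval of the difference ran from -0.80 to -0.13 for Trem2, from -1.02 to -0.24 for Tyrobp and from -0.54 to 0.10 for Cd9. Tyrobp was called lower without HSC-derived replicate 1 (log2 -0.78, adjusted p = 0.0135) or replicate 2 (adjusted p = 0.0145), and Cd63 was called lower without HSC-derived replicate 2 (log2 -0.69, adjusted p = 0.0239). Without the shallow libraries the values of Trem2, Tyrobp and Cd63 were -0.15, -0.05 and -0.02. Of the 33 other disease-associated microglia genes, 0 were higher and 2 lower: Capg, an actin-capping protein gene, with 25.8 ± 6.81 CPM in monocyte-derived against 61.9 ± 12.4 CPM in HSC-derived microglia, and Apoe, whose log2 fold change of -0.95 was -0.22, and no longer called, in the fit lacking the shallow libraries (adjusted p = 0.798). The call of Capg was also lost in the fit lacking the shallow libraries (log2 -1.39, adjusted p = 0.231). Leaving out single libraries ended the call of Apoe for each of the 4 monocyte-derived replicates and HSC-derived replicates 3 and 4, and that of Capg for monocyte-derived replicates 1 and 2 and HSC-derived replicates 1, 3 and 4. Lgals1 was lower as well, at 97.8 ± 10.8 CPM in monocyte-derived against 201 ± 53.8 CPM in HSC-derived microglia (SD, n = 4; log2 -1.02, adjusted p = 0.0109), a call that ended without the shallow libraries (log2 -0.84, adjusted p = 0.231) and without monocyte-derived replicate 1 or HSC-derived replicate 3 or 4 (adjusted p = 0.0653, 0.0514 and 0.0884).

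Leptomeningeal macrophages were compared with microglia of the same origin, to ask what goes with the compartment. Trem2 and Cd9 were lower and Lgals3 was higher in the leptomeninges in both origins, and Cd52 and Itgax were higher there in monocyte-derived cells. In monocyte-derived cells 3 of the 9 genes were called higher, against 19% of all tested genes, and 2 lower, against 16.3%. In HSC-derived cells 1 was called higher, against 5.75% of all tested genes, and 2 lower, against 3.96%. The median log2 fold change of the 9 genes was 0.03 in monocyte-derived cells, against -0.04 over all tested genes, and -0.37 in HSC-derived cells, against -0.06.

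Trem2 had 994.9, 1162, 961.8 and 928.9 CPM in monocyte-derived leptomeningeal macrophages and 775.5 and 1066 CPM in HSC-derived ones, and every one of these libraries lay below every microglia library. It fell by 1.28 on the log2 scale against monocyte-derived microglia (SE 0.173, adjusted p = 3.47e-07) and by 1.90 against HSC-derived microglia (SE 0.236, adjusted p = 4.45e-07). Its adaptor Tyrobp was not called in either origin: it had 2975, 3859, 3327 and 2841 CPM in monocyte-derived and 3189 and 3856 CPM in HSC-derived leptomeningeal macrophages. These values overlapped those of the microglia libraries of the same origin. The log2 fold change was 0.03 (SE 0.198, adjusted p = 0.913, 95% interval -0.35 to 0.42) in monocyte-derived cells. In HSC-derived cells it was -0.48 (SE 0.25, adjusted p = 0.256), and the wider 95% interval of -0.97 to 0.01 leaves room for a fall there.

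Lgals3 had 294.8, 400.8, 389.3 and 403.6 CPM in monocyte-derived leptomeningeal macrophages, all above the libraries of monocyte-derived microglia, and 317.7 and 138 CPM in HSC-derived ones, of which the second, the shallow library, lay among those of HSC-derived microglia. It was 7.14-fold higher than in monocyte-derived microglia (log2 2.84, SE 0.196, adjusted p = 1.21e-12) and 2.24-fold higher than in HSC-derived microglia (log2 1.16, SE 0.263, adjusted p = 0.00318). The HSC-derived call rested on replicate 1: without it the log2 fold change was 0.20 (adjusted p = 0.814), and without the shallow libraries, with replicate 1 alone on the leptomeningeal side, it was 1.499 (adjusted p = 2.37e-05). It was also lost when only these groups were fitted (adjusted p = 0.175).

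Cd52 had 1217, 1610, 2082 and 1501 CPM in monocyte-derived and 1549 and 1311 CPM in HSC-derived leptomeningeal macrophages, above the microglia libraries of the same origin in both. It rose in monocyte-derived cells (log2 1.53, SE 0.179, adjusted p = 2.35e-08) and was not called by edgeR in HSC-derived cells (log2 0.62, SE 0.218, adjusted p = 0.0675). It was called there without the shallow libraries, with 1 leptomeningeal library left (log2 0.99, adjusted p = 0.00235), and without HSC-derived microglia replicate 4 (log2 0.75, adjusted p = 0.0274). Cd52 was called there as well by limma voom (log2 0.76, adjusted p = 0.0261), with the replicate number as a block (adjusted p = 0.0232) and with library totals (adjusted p = 0.0453). Itgax had 29.3, 52.4, 36.1 and 46.2 CPM in monocyte-derived and 46.1 and 7.67 CPM in HSC-derived leptomeningeal macrophages. The monocyte-derived libraries lay above those of monocyte-derived microglia (log2 1.22, SE 0.248, adjusted p = 0.000197), and the HSC-derived pair lay above and below those of HSC-derived microglia (log2 0.39, SE 0.435, adjusted p = 0.665). The lower value of that pair, 7.67 CPM in the shallow replicate 2, was 1 count, where 3 counts correspond to 23.0 CPM.

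Spp1 had 18.2, 57.9, 36.1 and 41.5 CPM in monocyte-derived leptomeningeal macrophages and 23.9 and 0 CPM in HSC-derived ones, where a count of 0 in replicate 2 allows up to 23.0 CPM. The log2 fold change of 0.98 in monocyte-derived cells was not called by edgeR (SE 0.452, adjusted p = 0.109). It was called without monocyte-derived leptomeningeal replicate 1 (log2 1.22, adjusted p = 0.0314) or monocyte-derived microglia replicate 2 (log2 1.38, adjusted p = 0.0285), and by limma voom (log2 1.12, adjusted p = 0.00421). Spp1 was not called in HSC-derived cells (log2 -0.31, SE 0.951, adjusted p = 0.906). Cst7 stayed within the range of the microglia libraries of its origin, at 26.6, 30.6, 29.8 and 26.1 CPM in monocyte-derived and 29.0 and 30.7 CPM in HSC-derived leptomeningeal macrophages, and was not called (log2 -0.15, SE 0.197, adjusted p = 0.606, and -0.41, SE 0.374, adjusted p = 0.572).

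Cd9 had 164.2, 219.5, 168.7 and 184.7 CPM in monocyte-derived and 92.2 and 76.7 CPM in HSC-derived leptomeningeal macrophages, below all microglia libraries of the same origin. It fell by 0.50 on the log2 scale in monocyte-derived cells (SE 0.158, adjusted p = 0.0132) and by 1.79 in HSC-derived cells (SE 0.259, adjusted p = 7.14e-06). The monocyte-derived call was lost without monocyte-derived microglia replicate 4 (log2 -0.42, adjusted p = 0.0645), and the value was -1.12 with all libraries thinned to the shallowest total. Cd63 had 663.1, 706.5, 632.8 and 665.2 CPM in monocyte-derived and 678.1 and 1104 CPM in HSC-derived leptomeningeal macrophages and was not called (log2 -0.23, SE 0.189, adjusted p = 0.367, and -0.37, SE 0.247, adjusted p = 0.409). In monocyte-derived cells Cd63 was called lower without the shallow libraries (log2 -0.24, adjusted p = 0.0492) and with library totals (log2 -0.54, adjusted p = 0.00607).

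Of the 33 other disease-associated microglia genes, 11 were higher and 8 lower in monocyte-derived leptomeningeal macrophages, and 5 higher and 10 lower in HSC-derived ones. Over all tested genes, 19% were higher and 16.3% lower in monocyte-derived cells, and 5.75% higher and 3.96% lower in HSC-derived cells, which is the background for the counts of each list. The chemokine gene Ccl6 had 415 ± 79.3 CPM in monocyte-derived leptomeningeal macrophages against 70.2 ± 10.1 CPM in monocyte-derived microglia (SD, n = 4 each). Ctsd, the lysosomal protease cathepsin D, fell by 1.75 on the log2 scale in monocyte-derived and by 2.27 in HSC-derived cells, and Cadm1, an adhesion molecule gene, fell by 1.52 and 2.56. Of 20 homeostatic genes 16 were lower and 2 higher in monocyte-derived cells and 15 lower and 1 higher in HSC-derived cells, with medians of -1.45 and -1.51 on the log2 scale. All 9 tested receptors listed as TYROBP-associated were called in monocyte-derived cells, 7 higher and 2 lower. In HSC-derived cells 2 were higher, 1 lower and 6 not called. Cd300ld, an activating receptor gene, had 32.2 ± 11.4 CPM in monocyte-derived leptomeningeal macrophages against 8.38 ± 2.44 CPM in monocyte-derived microglia, and Siglech, a receptor gene of microglia, had 294 ± 121 CPM against 1000 ± 44.9 CPM. Of the 18 TREM2 signalling and shedding genes 5 were higher and 6 lower in monocyte-derived cells, and 0 higher and 3 lower in HSC-derived cells; Adam10, the main shedding protease of TREM2, had 50.7 ± 14.2 CPM in monocyte-derived leptomeningeal macrophages against 134 ± 9.83 CPM in monocyte-derived microglia. Lgals1 had 825 ± 173 CPM in monocyte-derived and 1050 ± 115 CPM in HSC-derived leptomeningeal macrophages, against 97.8 ± 10.8 CPM in monocyte-derived and 201 ± 53.8 CPM in HSC-derived microglia. Cd44, the surface receptor for osteopontin and hyaluronan, rose by a log2 fold change of 2.29 in monocyte-derived cells.

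Markers of other blood cells moved with the compartment. In monocyte-derived leptomeningeal macrophages the 6 measured neutrophil markers of 9 summed to 1100 to 2690 CPM, against 10.9 to 51.6 CPM in monocyte-derived microglia, and the monocyte markers to 639 to 936 CPM against 55.0 to 90.5 CPM. The 8 measured dendritic cell markers of 9 summed to 625 to 760 CPM against 94.6 to 120 CPM, and T and NK cell markers to 427 to 827 CPM against 112 to 143 CPM. In HSC-derived leptomeningeal macrophages the neutrophil markers summed to 3.42 to 30.7 CPM, with Camp, Ngp and Ltf at 0, against 0 to 10.2 CPM in HSC-derived microglia, and the monocyte markers to 322 to 548 CPM against 97.3 to 133 CPM. There the dendritic cell markers summed to 521 to 1120 CPM against 107 to 217 CPM, and T and NK cell markers to 253 to 451 CPM against 5.1 to 145 CPM. The part of these cells in the levels of Lgals3, Cd52 and Itgax, which leukocytes of other kinds also express, was not tested.

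Monocyte-derived and HSC-derived leptomeningeal macrophages were compared with only 2 libraries on the HSC-derived side. None of the 9 genes was called by edgeR, where 0.16% of all tested genes were called higher and 0.142% lower; 2 had an unadjusted p below 0.05, DESeq2 called 1 and limma voom 0. Cd9 lay nearest to the threshold, at 184.3 ± 25.1 CPM (SD, n = 4) in monocyte-derived against 84.5 ± 11 CPM (SD, n = 2) in HSC-derived cells, with no overlap (log2 1.07, SE 0.254, adjusted p = 0.0554). It was called without monocyte-derived leptomeningeal replicate 1 (log2 1.12, adjusted p = 0.0307) and without the shallow libraries, with 1 library left on the HSC-derived side (log2 0.98, adjusted p = 0.0311). It was also called by DESeq2 (adjusted p = 0.00467), with library totals (adjusted p = 0.0443) and without a filter on low counts (adjusted p = 0.0447). Lgals3 was called without HSC-derived leptomeningeal replicate 1, with the shallow library alone on that side (log2 1.52, adjusted p = 0.0486), against 0.55 with both (adjusted p = 0.411). For Trem2 and Tyrobp the 95% intervals of the log2 difference ran from -0.28 to 0.58 and from -0.59 to 0.36.

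The interaction asked whether the step between compartments differed between the origins. Of the 9 genes 1 was called, Lgals3, with a larger step in monocyte-derived cells (log2 difference of steps 1.67, SE 0.332, adjusted p = 0.0372), where 0.0566% of all tested genes were called higher and 0% lower. The step of Lgals3 was 2.84 in monocyte-derived and 1.16 in HSC-derived cells. This call was held in 8 of 24 alternatives. It was lost without the 3 shallow libraries (log2 1.33, adjusted p = 0.0657), and without any single one of 10 libraries, with adjusted p-values between 0.0625 without HSC-derived microglia replicate 2 and 0.275 without HSC-derived leptomeningeal replicate 2; without HSC-derived leptomeningeal replicate 1 the value was 2.63 (adjusted p = 0.00191). The interaction of Cd9 was 1.29 (SE 0.302, adjusted p = 0.117) and that of Cd52 0.91 (SE 0.287, adjusted p = 0.358).

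The genes whose levels over the 18 libraries were most like those of each member, among tested genes with a mean of at least 50 CPM, were ranked by Pearson correlation of log2(CPM + 1). These correlations describe differences between the 5 groups, whose libraries share depth and composition, and are given with no test. Lgals3 was most like Ccr2, the chemokine receptor gene of monocytes (0.989), Vim (0.985) and Ifitm2 (0.973), and Cd9 was most like Cd81 (0.985), Laptm5 (0.980) and Itgam (0.975). Trem2 was most like Ctsd (0.970), Cadm1 (0.967) and Cryba4 (0.959), and Cst7 was most like Ctsl (0.935), Fcgr3 (0.931) and Snx17 (0.930). Cd52 was most like the ribosomal protein genes Rps18, Rps19 and Rpsa (0.976, 0.973 and 0.970), and Cd63 was most like Mvb12a (0.958), Bst2 (0.942) and Nenf (0.937). Ribosomal protein genes took 5.01% to 5.94% of counts in host, 6.52% to 7.26% in monocyte-derived and 8.68% to 14.1% in HSC-derived microglia. In the leptomeninges they took 13.7% to 19.1%. The part of this share in the levels of Cd52 was not tested. Tyrobp was most like Ddrgk1, Krtcap2 and Aif1 (0.927, 0.925 and 0.909), Itgax most like Icam1, Fam129a and Emc10 (0.898, 0.874 and 0.872), and Spp1 most like B4galnt1, Esyt1 and Adam9 (0.868, 0.859 and 0.850).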

How the data were processed

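RNA of 18 sorted macrophage libraries was measured by bulk MARS-seq after preparation with actinomycin D and a sort of up to 100000 cells per library, per the labels' protocols. The authors deposited whole-number UMI counts per gene, beside normalized columns that were not used; 2 of the 20 raw columns matched no described sample and were left out. The build is mm10, per the submitters' processing notes; no aligner, counter or strand rule is named there. Genes were filtered with filterByExpr and fitted with edgeR 4.0.16 (R 4.3.3) in 1 quasi-likelihood model with TMM scaling and a coefficient per group. Tests were two-sided with Benjamini-Hochberg adjustment over 10597 genes at 0.05; the biological coefficient of variation was 16.1%. Alternatives used DESeq2 1.42.0, limma 3.58.1, other scalings and filters, thinned counts (seed 7), a replicate block and left-out libraries. The procedure was checked on simulated counts with the same spread in every group, read only for monocyte-derived against host microglia. That check did not cover unequal spread within HSC-derived microglia or comparisons with the group of 2 libraries. From each list, at most 3 called genes with the smallest p were named. Beside them stand Cx3cr1, named for its donor allele, and further genes that the text marks as named after their values were seen. Genes with at most 3 counts in a group are given as count ratios or bounds. Members and lists were chosen with earlier results of these data known. Replicate libraries of a group differed by more than sampling noise, with chi-square per degree of freedom of 1.43 or more. In HSC-derived microglia it was 1.72 between replicates 1 and 2 and 2.55 between replicates 3 and 4. Across these pairs it was 8.6 to 11.2, so that the 4 libraries split into pairs. The cause of that split was not tested.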

Additional observations from a re-analysis of the deposited data

Results flagged for a closer look

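Within groups of 4 libraries, 36 combinations of gene and group were checked for a library that stood apart from the other 3 by more than Dixon's 95% critical value; chance gives about 1 in 20. Lgals3 in monocyte-derived leptomeningeal macrophages replicate 1 stood apart at 294.8 CPM, against 389.3 to 403.6 CPM in the others, and it remained above all monocyte-derived microglia libraries. Itgax in monocyte-derived microglia replicate 3 stood apart at 19.5 CPM, against 16.5 to 16.7 CPM in the others, and it remained below all host libraries. Lgals3 also differed in its step between compartments between the origins, with an interaction of 1.67 on the log2 scale by the edgeR test (adjusted p = 0.0372), which rested on 2 HSC-derived leptomeningeal libraries of 317.7 and 138 CPM. The part of depth and of other blood cells in that difference was not tested.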

How the results depend on the processing

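The counts of called genes against host microglia and of leptomeningeal macrophages against microglia stayed within 1.5 times under every alternative run, at 4 to 7 of 9 for monocyte-derived and 5 to 6 for HSC-derived microglia, and at 4 to 6 for monocyte-derived and 2 to 4 for HSC-derived leptomeningeal macrophages. For monocyte-derived against HSC-derived microglia the main count of 2 became 0 with library totals without TMM, 4 in DESeq2, and 1 with only these groups in the fit, without the shallow libraries or with thinned counts, and ran from 0 to 4 with single libraries left out. For monocyte-derived against HSC-derived leptomeningeal macrophages the count of 0 became 1 with library totals, without a filter, in DESeq2 and without the shallow libraries, and 0 to 1 with single libraries left out. For the interaction the count of 1 became 2 in DESeq2 (Cd9 and Cd52; Lgals3 had no adjusted p there) and 0 with library totals, limma voom, only the donor-derived groups, the replicate block, without the shallow libraries and with thinned counts, and ran from 0 to 1 with single libraries left out. All-gene calls moved too. Between microglia of both origins 13 were higher and 187 lower in the main fit. This became 124 in all with library totals, 552 in DESeq2, 20 with only these groups fitted and 122 of 4266 after thinning. Against host microglia they ran from 759 (thinned) to 4605 (limma voom) for monocyte-derived cells. For HSC-derived cells they ran from 1084 (thinned) to 3739 (library totals). DESeq2 called 72 between the leptomeningeal groups and 49 for the interaction. The cause of these changes was not tested.

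With the replicate block the counts against host microglia were 5 and 5, and the interaction of Lgals3 was 1.63 (adjusted p = 0.149). Deviations of same-numbered libraries from their group means had correlations between -0.04 and 0.06 in comparisons of 4 pairs. Differently numbered libraries were not correlated beside them, so these values cannot decide whether same-numbered libraries shared mice. The numbers were taken as names only in the main fit. Library totals without TMM shifted the median log2 change of all genes to -0.28 in HSC-derived against host microglia, to 0.27 in monocyte-derived against HSC-derived microglia and to -0.34 in monocyte-derived leptomeningeal macrophages against microglia. Of 1194 values of single members under alternatives, 1121 kept their side of the threshold, 35 lost a call, 38 gained one and 0 reversed a call. After thinning, Spp1 and Itgax did not pass the filter on low counts and could not be tested, which left 7 of the 9 genes.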
